A study of Mus musculus with 24 samples.

Results

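Ubiquitin-specific proteases (Usps) form the largest family of deubiquitinases, the enzymes that take ubiquitin off proteins. The genes were chosen by name alone, as every row of the deposited count table whose symbol is Usp followed by a number and an optional letter suffix, without pseudogenes. This gave 58 of 55401 rows, of which 55 code for Usps. The other 3 share only the name: Usp6nl codes for a GTPase-activating protein, and Usp46os1 and Usp46os2 are RNAs antisense to Usp46. Of the 58 genes, 51 passed the filter on low counts and were tested.

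RNA was sequenced from mouse oocytes in 6 groups of 2 libraries, with 5 cells pooled per library. The design text speaks of embryos in its sentence on these oocyte libraries, while the sample labels name oocytes. The groups were untreated oocytes (con), oocytes exposed to microplastics in the animal (in vivo PSMPs), controls kept in culture (con-in vitro), oocytes exposed in culture (in vitro PSMPs), oocytes given the histone deacetylase inhibitor SAHA (SAHA), and exposed oocytes overexpressing Hdac3 (PSMPs & OE-Hdac3). The labels name no strain, age, oocyte stage, dose or duration. They also leave out which control belongs to SAHA and whether the overexpressing oocytes were exposed in the animal or in culture. Each library is a pool, and separate animals are not stated for a group's 2 libraries, so p-values measure only the spread between these libraries, which may be technical.

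Depth ran from 6.22 M counts in con-in vitro to 35.6 M in con, and between 11640 and 20957 genes were detected. In vivo PSMPs was counted as 1 library, because its columns agreed within the noise of counting (a chi-square statistic of 0.444 per degree of freedom), so that group has no spread of its own. Levels are given as CPM, the count of a gene per 1 M counts of its library, with libraries scaled by the trimmed mean of M values (TMM). The targeted gene Hdac3 stood at 335 and 228 CPM in PSMPs & OE-Hdac3 and at 7.16 to 37.4 CPM elsewhere. All 12 oocyte markers were detected in every group, with a summed level from 10835 CPM in con-in vitro to 56852 CPM in SAHA. The 20 cumulus and granulosa markers summed to between 35.8 and 170 CPM, the highest in in vivo PSMPs. Of these markers 15 were at 0 in con and 12 in con-in vitro. In vivo PSMPs, in vitro PSMPs and SAHA each had 4 at 0, and PSMPs & OE-Hdac3 had 3.

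A fully grown oocyte makes almost no new RNA and runs meiosis on stored transcripts and proteins, so protein turnover through ubiquitin and the proteasome sets the pace of the cell cycle. Usps work against the ligases that attach ubiquitin: some act on histones H2A and H2B, some at the proteasome, some on p53 and its ligase Mdm2, and others on mitochondria, the endoplasmic reticulum or endosomes. In pooled cells, fewer cells of a type and less RNA per cell cannot be told apart.

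Summed over the 55 Usp genes, the family took between 2982 CPM (in vitro PSMPs replicate 1) and 6062 CPM (con-in vitro replicate 1). Between 41 and 53 of the 55 genes had at least 1 count in a library, and 29 to 40 reached 10 CPM. The PSMPs & OE-Hdac3 libraries had 40 and 39 genes at 10 CPM, more than any other library, and their highest single gene reached only 282 and 283 CPM, against 453 to 1178 CPM in the other libraries.

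Per kilobase of exon, Usp28 had the highest mean level over the 6 groups, at 78.1 CPM per kilobase, with libraries from 18.8 to 148. It was followed by Usp46 at 52.1 (24.0 to 123), Usp19 at 44.9 (12.1 to 104), Usp2 at 44.3 (4.57 to 117), Usp15 at 40.5 (12.0 to 70.9) and Usp7 at 35.0 (26.1 to 52.5). Usp1 at 26.1 (17.2 to 70.6) and Usp30 at 24.4 (8.95 to 47.9) closed the 8 highest. Each gene in this order overlapped the next over the libraries. Usp7, which removes ubiquitin from Mdm2 and p53, had the narrowest range of the 8.

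**Figure D1:**
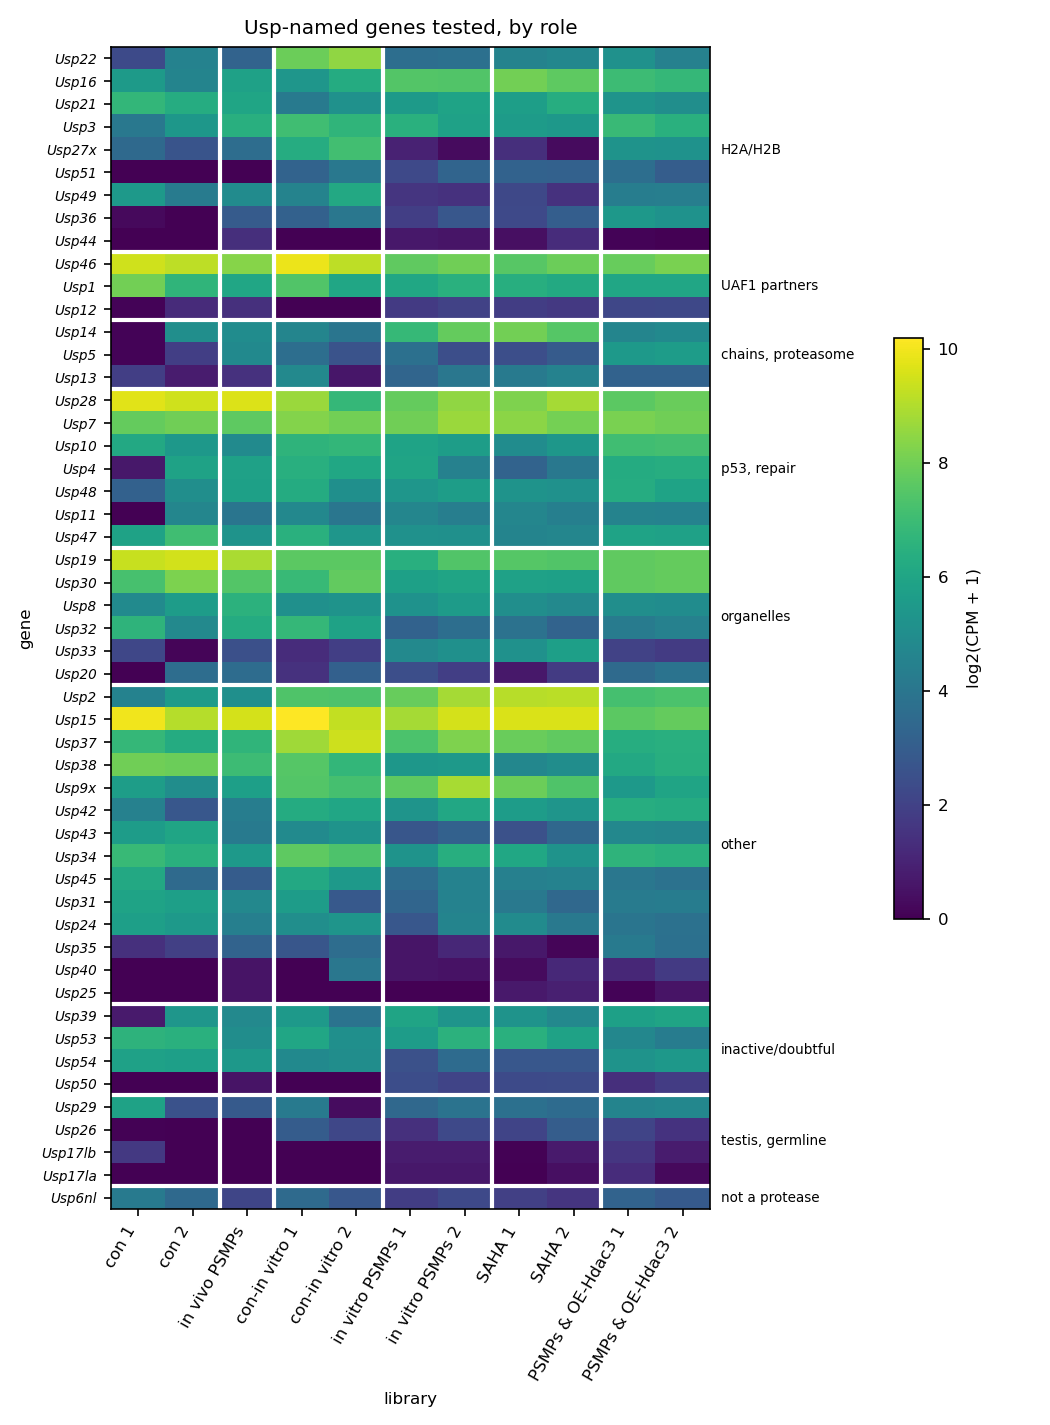
Level of the 51 tested genes (rows, grouped by role) in the 11 libraries (columns, grouped by condition), as log2(CPM + 1). Usp27x, Usp49, Usp54 and Usp32 are darker in in vitro PSMPs and SAHA than in con-in vitro, and Usp14, Usp4, Usp39 and Usp11 are darker in con replicate 1 than in con replicate 2.

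The 7 genes that did not pass the filter were near or at 0. Usp9y, the Y-linked paralog of Usp9x, had 0 counts in all 12 columns, and Usp18, which removes the ubiquitin-like ISG15, had 1 count in all. Usp46os1 and Usp46os2 also had 1 count each. Usp17lc, Usp17ld and Usp17le, near-identical copies on chromosome 7 whose reads may be shared between them, had at most 9 counts in a column and none in con, in vivo PSMPs or con-in vitro.

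The libraries of a group were not equally alike. Among genes that code for Usps and average at least 10 CPM, 15 of 34 differed by over 2-fold in CPM + 1 between the con libraries. Of these, 4 differed by over 10-fold, namely Usp11, Usp14, Usp39 and Usp4. Usp14, which trims ubiquitin chains at the proteasome, stood at 0.0694 and 31.8 CPM there. Over all genes at that level, 6.99% differed by over 10-fold between the con libraries. In con-in vitro 8 of 37 differed by over 2-fold and 1, Usp13, by over 10-fold. In in vitro PSMPs 6 of 33 differed by over 2-fold, and in SAHA and PSMPs & OE-Hdac3 none of 33 and none of 39 did.

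**Figure D2:**
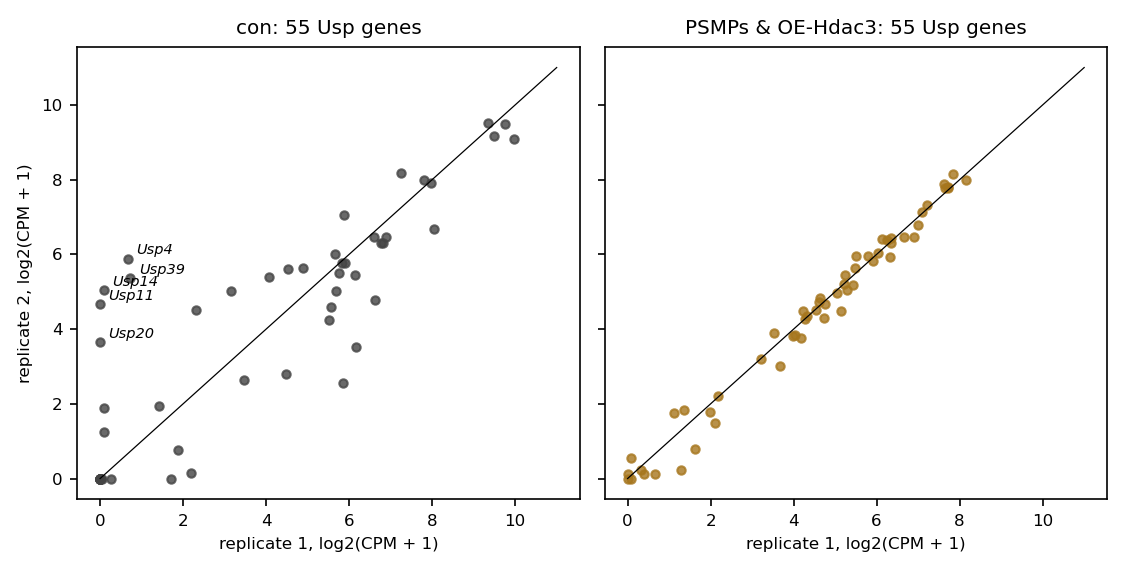
Level of the 55 Usp genes in replicate 2 against replicate 1, as log2(CPM + 1), in con (left) and PSMPs & OE-Hdac3 (right); the line marks equal levels and names mark genes over 10-fold apart in CPM + 1. The median absolute log2 difference in CPM + 1 was 0.92 in con and 0.17 in PSMPs & OE-Hdac3 among those of the 55 genes averaging at least 10 CPM.

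The products of 9 of the genes act on histone H2A or H2B ubiquitin. Usp22 is the deubiquitinase of the SAGA coactivator complex, and Usp27x and Usp51 are its close homologs, which depend on the same adaptors Atxn7l3 and Eny2. Usp27x lies on chromosome X, 7371274 to 7375830, minus strand, Usp51 on chromosome X, 153006469 to 153009416, plus strand, Usp22 on chromosome 11, 61151785 to 61175055, minus strand, and Usp49, an H2B deubiquitinase, on chromosome 17, 47630690 to 47686738, plus strand (mm10).

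The sequences before the starts of Usp27x, Usp49 and Usp51 are shown, 3 histone deubiquitinase genes with an entry in the RefSeq promoter table (GRCm38.p6). They were picked after their values were seen, without a ranking of the patterns. Each is the 250 bases before the gene's start, written 5′ to 3′ on the gene's strand, with capitals on a GC box (GGGCGG or its reverse complement CCGCCC) in Usp27x and Usp51 and on a CCAAT box (here its reverse complement ATTGG) in Usp49.
Usp27x, chrX:7375831-7376080, minus strand: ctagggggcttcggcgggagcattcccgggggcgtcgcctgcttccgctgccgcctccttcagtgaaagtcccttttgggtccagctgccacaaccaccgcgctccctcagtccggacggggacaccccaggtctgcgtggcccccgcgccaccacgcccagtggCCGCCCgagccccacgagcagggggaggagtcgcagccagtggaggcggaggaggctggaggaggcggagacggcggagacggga
Usp51, chrX:153006219-153006468, plus strand: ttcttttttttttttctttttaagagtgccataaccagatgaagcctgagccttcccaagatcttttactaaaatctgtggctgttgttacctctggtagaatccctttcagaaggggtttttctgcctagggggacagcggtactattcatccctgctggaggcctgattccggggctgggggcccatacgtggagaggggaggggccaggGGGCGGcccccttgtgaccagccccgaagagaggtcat
Usp49, chr17:47630440-47630689, plus strand: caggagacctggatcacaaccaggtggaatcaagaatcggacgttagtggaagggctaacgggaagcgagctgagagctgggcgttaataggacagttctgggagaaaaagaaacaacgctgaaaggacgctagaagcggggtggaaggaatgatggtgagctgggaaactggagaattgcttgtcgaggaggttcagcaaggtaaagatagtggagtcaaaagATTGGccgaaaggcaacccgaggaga
The Usp27x window was 72.4% G or C with 24 CpG dinucleotides, against 52.8% and 5 in Usp51 and 51.2% and 11 in Usp49. Of the 58 genes, 44 matched the promoter entries, with 45 windows. The GC box was in 27 of these 45 windows (60.0%) and in 32.7% of all 32851 windows, each again the 250 bases before a start with nothing after it, searching both strands. CCAAT was in 31.1% and 33.8%, the E-box CACGTG in 8.89% and 6.02%, and the ETS motif CCGGAAG in 15.6% and 6.91%. The cAMP response element TGACGTCA was in none of the 45 windows and in 1.55% of all windows. The median G and C content was 62.8% in the 45 windows and 52.4% in all. These are letter matches in a fixed window, not sites shown to be used.

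Usp27x stood at 10.1 and 5.25 CPM in con, 11.5 in in vivo PSMPs, 79.8 and 139 in con-in vitro, 0.972 and 0.242 in in vitro PSMPs, 1.58 and 0.227 in SAHA, and 36.3 and 36.1 in PSMPs & OE-Hdac3. Both con-in vitro libraries lay above every other library, and the in vitro PSMPs and SAHA libraries lay below every other library. Usp22 stood at 3.96 and 21.9 CPM in con, 8.58 in in vivo PSMPs, 238 and 367 in con-in vitro, 11.7 and 12.7 in in vitro PSMPs, 22.9 and 25.6 in SAHA, and 34.5 and 21.4 in PSMPs & OE-Hdac3. It was thus high in con-in vitro only, with the other 9 libraries between 3.96 and 34.5 CPM. Usp49 stood at 44.6 and 17.9 CPM in con, 29.7 in in vivo PSMPs, 22.5 and 71.0 in con-in vitro, 1.94 and 1.78 in in vitro PSMPs, 3.62 and 1.70 in SAHA, and 19.0 and 19.4 in PSMPs & OE-Hdac3. The in vitro PSMPs and SAHA libraries were the 4 lowest. Of the exonic bases of Usp49, 52.3% are shared with the same-strand gene model Gm20517, so its reads may be split between the 2.

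Usp51 had 0 counts in con and in in vivo PSMPs and stood at 8.60 and 16.1 CPM in con-in vitro, 3.73 and 8.80 in in vitro PSMPs, 8.14 and 7.90 in SAHA, and 11.8 and 7.09 in PSMPs & OE-Hdac3. The groups therefore fell into those with no count and those with at least 3.73 CPM. Usp36, a nucleolar deubiquitinase, was near 0 in con only: it stood at 0.208 and 0 CPM in con, 6.52 in in vivo PSMPs, 8.01 and 15.6 in con-in vitro, 2.67 and 5.89 in in vitro PSMPs, 3.79 and 7.33 in SAHA, and 42.3 and 35.3 in PSMPs & OE-Hdac3. Its PSMPs & OE-Hdac3 libraries were the highest. The adaptor Atxn7l3 reached at most 0.64 CPM in any library, whereas Eny2 ranged from 44.5 CPM in con-in vitro to 563 CPM in con.

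Usp16, which removes ubiquitin from H2A and acts at mitosis, stood at 45.9 and 23.0 CPM in con, 56.9 in in vivo PSMPs, 40.3 and 77.5 in con-in vitro, 177 and 173 in in vitro PSMPs, 261 and 204 in SAHA, and 126 and 109 in PSMPs & OE-Hdac3. Its con and con-in vitro libraries all lay below those of the last 3 groups. Usp3, an H2A and H2B deubiquitinase, stood at 15.8 and 41.0 CPM in con, 86.1 in in vivo PSMPs, 133 and 99.9 in con-in vitro, 88.9 and 55.4 in in vitro PSMPs, 47.8 and 42.0 in SAHA, and 119 and 87.5 in PSMPs & OE-Hdac3. Usp21, an H2A deubiquitinase, stood at 108 and 78.1 CPM in con, 62.7 in in vivo PSMPs, 17.2 and 34.9 in con-in vitro, 45.9 and 59.5 in in vitro PSMPs, 51.8 and 81.5 in SAHA, and 37.8 and 32.0 in PSMPs & OE-Hdac3. Usp3 and Usp21 thus ran in opposite directions between con and con-in vitro. Usp44, an H2B deubiquitinase, was at 0 in con and con-in vitro, at 1.60 CPM in in vivo PSMPs and at no more than 1.42 CPM in any other library.

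**Figure D3:**
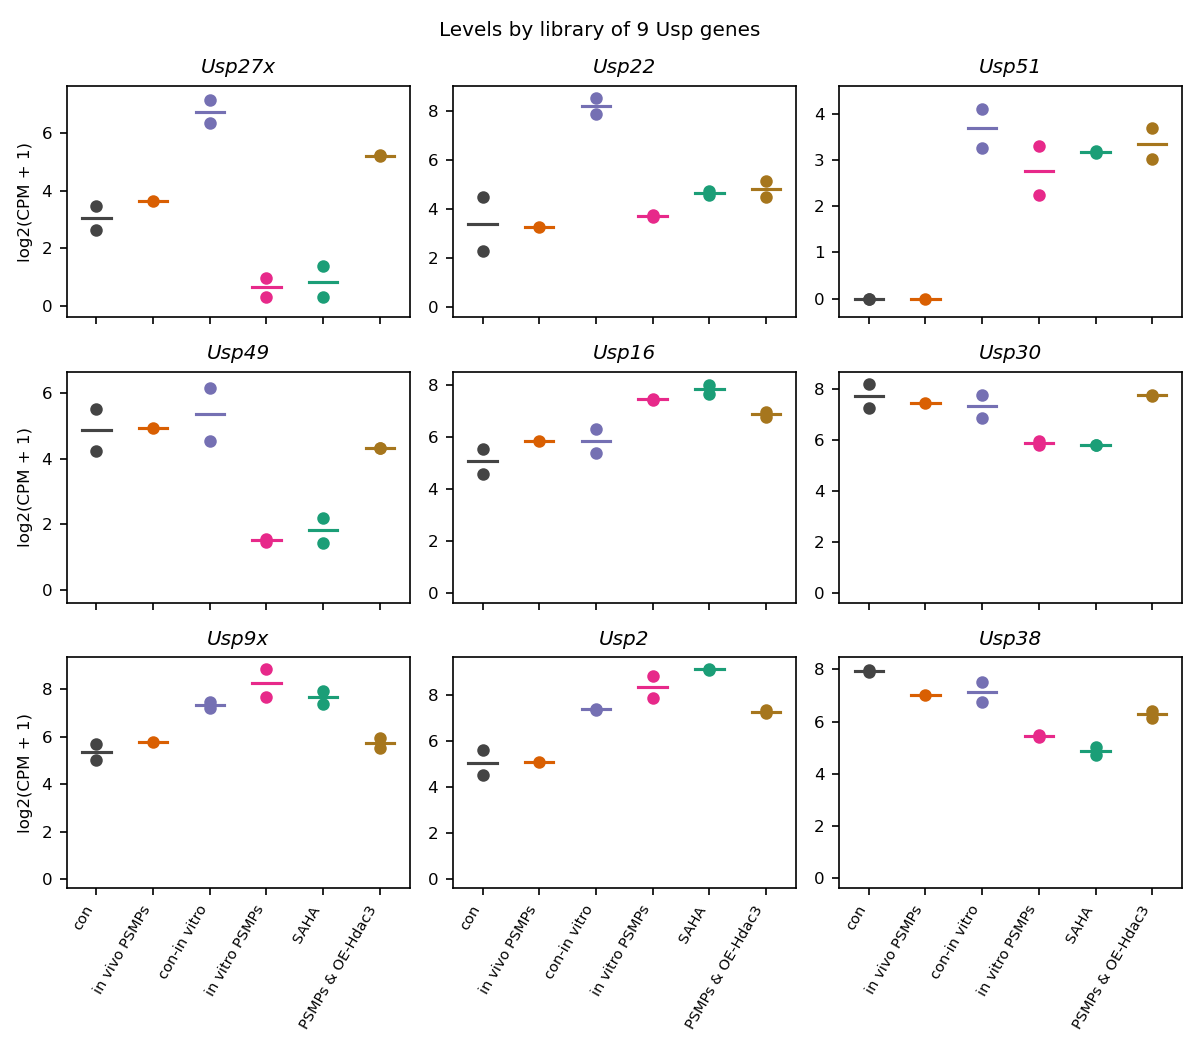
Level of 9 Usp genes by group, as log2(CPM + 1); each point is 1 library and the bar is the group mean. Usp27x runs from 0.227 CPM in SAHA replicate 2 to 139 CPM in con-in vitro replicate 2, Usp51 is at 0 in con and in vivo PSMPs, and Usp2 reaches 546 and 565 CPM in SAHA.

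Exposure in culture was compared with culture alone. Of the 51 tested genes, 10 passed edgeR's quasi-likelihood test at an adjusted p under 0.05, which is 19.6% beside 15.4% of all 16736 genes tested. Higher were 2 and lower were 8, beside 8.57% and 6.78% of all genes in the 2 directions. The median fitted log2 fold change was -0.60 over the tested Usp-named genes and 0.71 over all genes. When libraries were scaled by their totals instead, the median over all genes moved to 1.70 and the calls split into 8 higher and 4 lower, so the balance of directions depends on the scaling. In the same comparison 6 of the 12 oocyte markers were called higher and none lower, and their summed level was 38943 and 49672 CPM in in vitro PSMPs against 10835 and 11371 in con-in vitro; the part of this in the Usp values was not tested.

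In that comparison 4 of the 9 histone genes passed. Usp27x fell by 7.48 ± 1.17 (log2, standard error, adjusted p = 0.00333), Usp49 fell by 4.65 ± 0.90 (adjusted p = 0.00921) and Usp22 fell by 4.63 ± 0.79 (adjusted p = 0.00525). Usp16 was higher by 1.57 ± 0.45 (adjusted p = 0.0486), a call that was lost in 6 of 13 alternative analyses. The call of Usp27x held in all 12 alternative analyses, among them each left-out library. Usp3, Usp21, Usp36, Usp44 and Usp51 did not pass, with adjusted p from 0.18 to 0.513.

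Among genes that act on organelles, Usp32 and Usp30 passed in the same comparison. Usp30 sits on the outer mitochondrial membrane and opposes the removal of mitochondria. It stood at 151 and 291 CPM in con, 174 in in vivo PSMPs, 116 and 217 in con-in vitro, 54.3 and 61.6 in in vitro PSMPs, 55.6 and 54.7 in SAHA, and 209 and 219 in PSMPs & OE-Hdac3. The 4 libraries of in vitro PSMPs and SAHA lay below the other 7. Usp30 fell by 1.52 ± 0.43 on the log2 scale in in vitro PSMPs against con-in vitro (adjusted p = 0.0436). That call was lost with library totals, with the replicate block and with only the groups compared. It was also lost without con-in vitro replicate 2 and without either in vitro PSMPs replicate. Usp32, a membrane-anchored protease, stood at 111 and 58.2 CPM in con-in vitro and 8.34 and 11.8 in in vitro PSMPs, and fell by 3.07 ± 0.71 (adjusted p = 0.0212). Usp19, which has an isoform anchored in the endoplasmic reticulum, stood at 652 and 730 CPM in con, 485 in in vivo PSMPs, 200 and 199 in con-in vitro, with the other 6 libraries between 85.4 and 222, and did not pass against con-in vitro (-0.62 ± 0.36, adjusted p = 0.253).

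Of the genes whose products bind Uaf1 (Wdr48), a WD-repeat activator, 1 of 3 passed. Usp46 stood at 712 and 578 CPM in con, 329 in in vivo PSMPs, 964 and 587 in con-in vitro, 209 and 250 in in vitro PSMPs, 188 and 240 in SAHA, and 229 and 283 in PSMPs & OE-Hdac3. It fell by 1.76 ± 0.35 in in vitro PSMPs against con-in vitro (adjusted p = 0.0103). Usp1, which acts on the DNA repair proteins Fancd2 and Pcna, stood at 264 and 102 CPM in con and between 64.1 and 170 CPM in the other libraries, and passed in no comparison. Wdr20, which adds to the activation of Usp46, went the other way: it stood at 266 and 245 CPM in con-in vitro and 486 and 678 CPM in in vitro PSMPs, higher by 1.19 ± 0.34 (adjusted p = 0.0459).

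The remaining calls in that comparison were Usp38, Usp43 and Usp50. Usp38 stood at 250 and 241 CPM in con, 128 in in vivo PSMPs, 184 and 106 in con-in vitro, 41.3 and 43.4 in in vitro PSMPs, 25.1 and 31.2 in SAHA, and 69.5 and 84.0 in PSMPs & OE-Hdac3, and fell by 1.77 ± 0.38 (adjusted p = 0.0141). Usp43 stood at 28.8 and 36.3 CPM in con-in vitro and 5.59 and 7.91 in in vitro PSMPs, and fell by 2.27 ± 0.61 (adjusted p = 0.0359). For both, the in vitro PSMPs libraries lay below the con-in vitro libraries, but the call of Usp38 was lost in 4 of 13 alternative analyses (-0.77 with library totals) and that of Usp43 in 7 of 13 (-1.31 with library totals). Usp50, whose product lacks residues needed for catalysis, had 0 counts in con-in vitro and 4.37 and 3.31 CPM in in vitro PSMPs, at least 9.01-fold higher against 3 counts over the group (adjusted p = 0.0352). Opposite-strand gene models share 20.5% of the exonic bases of Usp38 and 12.8% of those of Usp43, and the sources used here do not say whether reads were counted by strand.

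Several genes with central roles did not pass. Usp7 stood at 223 and 254 CPM in con, 203 in in vivo PSMPs, 313 and 259 in con-in vitro, 254 and 408 in in vitro PSMPs, 346 and 265 in SAHA, and 282 and 252 in PSMPs & OE-Hdac3, within 0.36 log2 of its control in every comparison with a control group. Usp14 stood at 24.3 and 14.5 CPM in con-in vitro and 112 and 220 in in vitro PSMPs. These libraries did not overlap, yet the fitted difference of 3.10 ± 1.57 missed the threshold (adjusted p = 0.2), and the gene's con libraries lay far apart. Opposite-strand gene models share 26.0% of the exonic bases of Usp14. Usp5, which takes apart free ubiquitin chains, stood at 11.9 and 5.19 CPM in con-in vitro and 12.6 and 4.44 in in vitro PSMPs, with the highest levels in PSMPs & OE-Hdac3 at 43.9 and 48.3 CPM. The calls rested on both exposed libraries: without in vitro PSMPs replicate 1 there was 1 call and without replicate 2 there were 2.

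SAHA was compared with con-in vitro, which is also the control of the comparison above, so these comparisons are not independent. Of the 51 genes 16 passed (31.4%, beside 19.8% of all genes). Higher were 3 and lower were 13, beside 11.7% and 8.14% of all genes, with a median log2 fold change of -0.62 beside 0.66 over all genes. With library totals the split was 6 higher and 7 lower, with an all-gene median of 1.37. Of the 12 oocyte markers 8 were called higher and none lower, with a summed level of 51351 and 56852 CPM in SAHA against 10835 and 11371 in con-in vitro, and the part of this in the Usp values was not tested.

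Against con-in vitro, Usp27x fell by 6.91 ± 1.13 in SAHA (adjusted p = 0.00358), Usp49 fell by 4.13 ± 0.87 (adjusted p = 0.0121) and Usp22 fell by 3.64 ± 0.75 (adjusted p = 0.0113). Usp16 was higher by 1.98 ± 0.46 (adjusted p = 0.0186). The calls of Usp27x and Usp38, the latter lower by 5.14-fold (adjusted p = 0.00323), held in every alternative analysis. Usp2, a protease of cyclin D1 and of clock proteins, stood at 22.0 and 47.8 CPM in con, 32.9 in in vivo PSMPs, 167 and 162 in con-in vitro, 230 and 451 in in vitro PSMPs, 546 and 565 in SAHA, and 146 and 160 in PSMPs & OE-Hdac3. It was highest in SAHA, by 1.75 ± 0.45 log2 over con-in vitro (adjusted p = 0.0276). Usp50 was at least 9.17-fold higher.

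The other lower genes in SAHA against con-in vitro were Usp32, Usp54, Usp43, Usp46, Usp34, Usp30, Usp10, Usp37 and Usp35, by 1.35 to 4.63 log2. Usp10, which acts on p53 in the cytoplasm with its partner G3bp1, stood at 70.1 and 43.0 CPM in con, 28.6 in in vivo PSMPs, 97.8 and 107 in con-in vitro, 59.8 and 50.8 in in vitro PSMPs, 30.3 and 41.1 in SAHA, and 135 and 140 in PSMPs & OE-Hdac3. Its 2 SAHA libraries lay below both con-in vitro libraries. The call of Usp10 was lost with no filter, with library totals, with the replicate block and with only the groups compared. It was also lost without con-in vitro replicate 2 and without either SAHA replicate. Usp54, a member of doubtful protease activity, stood at 27.6 and 31.1 CPM in con-in vitro and 5.77 and 5.85 in SAHA. The count of calls fell to 2 without SAHA replicate 1, to 3 without SAHA replicate 2 and to 10 without con-in vitro replicate 2.

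Against con, 20 of the 51 genes passed in SAHA (39.2%, beside 27% of all genes), 10 higher and 10 lower, beside 20.2% and 6.75% of all genes. The median log2 fold change was -0.33, beside 0.59 over all genes. Here 5 of the 12 oocyte markers were called higher and 1 lower, and 3 of the 15 tested cumulus and granulosa markers were called higher (summed level 78.2 and 86.7 CPM in SAHA, 47.5 and 70.8 in con), and the part of these in the Usp values was not tested. Usp2 was higher by 3.99 ± 0.49 (adjusted p = 0.00324), a call that held in every alternative analysis. Usp9x stood at 50.8 and 31.5 CPM in con, 53.8 in in vivo PSMPs, 175 and 146 in con-in vitro, 206 and 461 in in vitro PSMPs, 241 and 166 in SAHA, and 44.4 and 60.5 in PSMPs & OE-Hdac3. Its product is a large X-linked protease that stabilises many substrates, and it was higher in SAHA than in con by 2.31 ± 0.48 (adjusted p = 0.0134). Usp16 was higher by 2.75 ± 0.47 (adjusted p = 0.00858). Usp33, a protease of the secretory pathway, stood at 3.54 and 0.103 CPM in con, 34.9 and 52.7 in SAHA, 26.8 and 33.7 in in vitro PSMPs and no more than 4.64 CPM in the other libraries, and was higher by 4.59 ± 1.37 (adjusted p = 0.0373). That call was lost in 4 of 12 alternative analyses, and 24.4% of the exonic bases of Usp33 are shared with opposite-strand gene models.

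The other higher genes in SAHA against con were near or at 0 in con. Usp51, Usp50, Usp44 and Usp25, all at 0 in con, were higher by bounds of 181-fold, 88.2-fold, 19.8-fold and 16.6-fold or more, set against 3 counts over the group. Usp26, a testis gene on chromosome X, had 1 count in con and 3.22 and 6.99 CPM in SAHA, 345 times as much (95% interval from counting alone, 61.2 to 13705). Usp36 was higher by 5.71 ± 1.46 (adjusted p = 0.0229). Only Usp51, Usp26 and Usp36 of these 6 reached 5 CPM in a SAHA library.

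Lower in SAHA against con were Usp49, Usp54, Usp38, Usp27x, Usp43, Usp32, Usp30, Usp47, Usp19 and Usp46. Usp38 fell by 3.12 ± 0.40 (adjusted p = 0.00329), Usp54 fell by 3.23 ± 0.59 (adjusted p = 0.00994) and Usp19 fell by 1.96 ± 0.37 (adjusted p = 0.0107). Usp54 stood at 55.8 and 53.3 CPM in con and 5.77 and 5.85 in SAHA. The count fell to 1 without SAHA replicate 1, to 4 without SAHA replicate 2 and to 5 when only these 2 groups were fitted, and rose to 31 without con replicate 2.

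The 2 control groups differed as well. In con-in vitro against con 13 of 51 genes passed (25.5%, beside 25.1% of all genes), which is near the background. Higher were 11 and lower were 2, beside 14.7% and 10.5% of all genes, while library totals gave 7 higher and 6 lower with an all-gene median of -0.49 in place of 0.00. Of the histone genes, 5 of 9 were higher: Usp22 by 4.54 ± 0.79 (adjusted p = 0.00437), Usp27x by 3.83 ± 0.97 (adjusted p = 0.0224), Usp36 by 6.79 ± 1.53 (adjusted p = 0.0138), Usp3 by 2.03 ± 0.53 (adjusted p = 0.0247), and Usp51, which was at 0 in con, at least 279-fold (adjusted p = 0.00242). Usp21 fell by 1.83 ± 0.50 (adjusted p = 0.0289). With library totals the calls of Usp27x and Usp3 were lost.

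Usp37, a protease of cyclin A, stood at 111 and 77.4 CPM in con, 101 in in vivo PSMPs, 430 and 695 in con-in vitro, 158 and 296 in in vitro PSMPs, 236 and 206 in SAHA, and 80.5 and 85.9 in PSMPs & OE-Hdac3. It was highest in con-in vitro, 2.57 ± 0.42 log2 above con (adjusted p = 0.00342). Usp19 fell by 1.79 ± 0.37 between con and con-in vitro (adjusted p = 0.00894). The calls of Usp37 and Usp19 held in every alternative analysis. Usp2, Usp9x and Usp42 were higher in con-in vitro by 2.24, 1.96 and 2.38 log2, but library totals lost the calls of Usp9x and Usp42. Usp26 had a ratio of 346 (95% counting interval 58.3 to 14047). Usp40 was called although its libraries, at 0 and 15.3 CPM in con-in vitro and 0 in con, overlapped. Without con replicate 2 the count of calls rose to 21, and it fell to 3 when only these 2 groups were fitted. Con-in vitro also had the lowest summed level of the 12 oocyte markers, 10835 and 11371 CPM against 42889 and 43095 in con, with 5 of the 12 called lower, and was the shallowest group, and the part of these in the Usp values was not tested.

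Exposure in the animal gave no call among the 51 genes in edgeR's test against con (0%, beside 4.88% of all genes). At an unadjusted p under 0.05 were 9 of the 51, beside 4402 of all 16736 genes. DESeq2 gave 5 calls, for which no share over all genes is given here. The median log2 fold change was 0.00, or 0.05 with genes at 0 in 1 group set at their bounds, beside 0.25 over all genes. The smallest adjusted p-values belonged to low genes. Usp44, at 1.60 CPM against 0, was at least 36-fold higher (adjusted p = 0.0523), Usp50 at least 10.5-fold (adjusted p = 0.0601) and Usp25 at least 9.87-fold (adjusted p = 0.0889). Usp36 had a fitted difference of 5.94 ± 1.55 (adjusted p = 0.0568).

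Among the genes with a call in culture, the fitted differences in the animal included 0.59 ± 1.04 for Usp27x, -0.07 ± 0.94 for Usp49, -0.59 ± 0.86 for Usp22, 0.29 ± 0.80 for Usp32, -0.34 ± 0.52 for Usp30, -0.97 ± 0.43 for Usp46 and -0.94 ± 0.47 for Usp38. Usp43, Usp16 and Usp50 ran in the same direction as in culture, also without a call. Usp43 had 682 and 684 raw counts in the in vivo PSMPs columns against 1426 and 2458 in con. Usp16 stood at 56.9 CPM against 45.9 and 23.0 in con, and Usp50 is given above. Usp5 stood at 27.8 CPM in in vivo PSMPs against 0.0694 and 2.70 in con (4.31 ± 1.52, adjusted p = 0.105). The count moved with the con libraries: without con replicate 1 there were 5 calls and without con replicate 2 there were 16. In vivo PSMPs was also the group with the highest sum of cumulus and granulosa markers (170 CPM, against 47.5 and 70.8 in con), and their part in these values was not tested.

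The exposure effect in culture was then set against the effect in the animal, 2 contrasts that share no library. Their difference was called for 4 of 51 genes (7.84%, beside 11.3% of all genes, a share below the background), all lower in culture, beside 4.87% of all genes higher and 6.4% lower. The 4 genes are all among the 9 histone deubiquitinases, a list set with earlier results of these data known. Calls were not confined to that list: of 33 tested deubiquitinases outside the Usp family, 2 were called higher and 6 lower. The difference of effects was -8.07 ± 1.46 for Usp27x (adjusted p = 0.0112), -7.40 ± 1.95 for Usp36 (adjusted p = 0.0426), -4.57 ± 1.21 for Usp49 (adjusted p = 0.0429) and -4.04 ± 1.07 for Usp22 (adjusted p = 0.0433). For Usp27x, Usp49 and Usp22 the effect in the animal was within its standard error of 0, and the larger effect was that in culture. For Usp22 the in vitro PSMPs libraries, at 11.7 and 12.7 CPM, lay between the con libraries, at 3.96 and 21.9. Only con-in vitro was high, at 238 and 367 CPM. A fall under exposure and a cultured control that was itself unusual cannot be told apart here. For Usp36 the effect in culture was -1.46 ± 1.20 and that in the animal 5.94 ± 1.55, against con libraries that held 6 counts in all. Of the 12 oocyte markers, 5 were called higher and none lower in the difference of effects, and the part of this in the Usp values was not tested. The median difference over all genes was 0.06, and 0.66 with library totals. No call was left without in vitro PSMPs replicate 2 or with only the 4 groups fitted, 1 each without in vitro PSMPs replicate 1 or con-in vitro replicate 2, and 8 and 16 without con replicates 1 and 2.

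**Figure D4:**
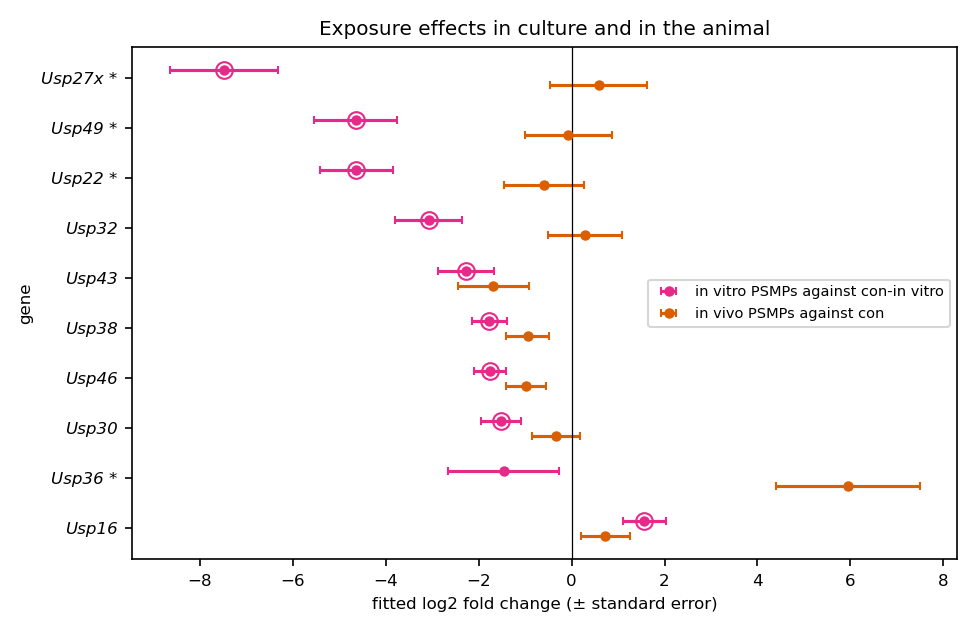
Fitted log2 fold change with its standard error of 10 genes under exposure in culture (in vitro PSMPs against con-in vitro) and in the animal (in vivo PSMPs against con); rings mark adjusted p under 0.05 and stars mark genes whose 2 effects differ. Usp27x is at -7.48 in culture and 0.59 in the animal; Usp50, which is at 0 in both control groups, is not drawn.

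Overexpression of Hdac3 in exposed oocytes was compared with both exposed groups. Against in vitro PSMPs, 3 of 51 genes passed (5.88%, beside 4.83% of all genes), 2 higher and 1 lower, beside 1.85% and 2.98% of all genes. Usp27x was higher by 5.88 ± 1.10 (adjusted p = 0.021), at 36.3 and 36.1 CPM against 0.972 and 0.242. Usp30 was higher by 1.89 ± 0.43 (adjusted p = 0.0433), at 209 and 219 CPM against 54.3 and 61.6. Usp9x fell by 2.67 ± 0.49 (adjusted p = 0.0204), at 44.4 and 60.5 CPM against 206 and 461. In each of the 3 the libraries of the groups were apart. Of the 12 oocyte markers 3 were called lower and none higher, with a summed level of 20362 and 24012 CPM against 38943 and 49672, and the part of this in the Usp values was not tested.

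Just outside the threshold against in vitro PSMPs lay Usp54 (2.36 ± 0.57, adjusted p = 0.0514) and Usp49 (3.36 ± 0.85, adjusted p = 0.0591). Usp22 did not pass (1.20 ± 0.69, adjusted p = 0.388), nor did Usp38, Usp46 or Usp32. Usp15, a protease of the TGF-beta receptor pathway, stood at 1008 and 543 CPM in con, 752 in in vivo PSMPs, 1178 and 620 in con-in vitro, 453 and 749 in in vitro PSMPs, 796 and 794 in SAHA, and 200 and 218 in PSMPs & OE-Hdac3. Its PSMPs & OE-Hdac3 libraries were the 2 lowest of the 11, and the comparison with in vitro PSMPs gave an adjusted p of 0.0894. Leaving out in vitro PSMPs replicate 1 left 1 call and leaving out any of the other 3 libraries left 0, while library totals gave 6 higher and 1 lower, and a fit to only these 2 groups gave 18 calls.

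Against in vivo PSMPs no gene passed (0%, beside 0% of all genes). At an unadjusted p under 0.05 were 12 of 51, beside 2407 of all 16736 genes. There were 5 calls in DESeq2 and 26 with only these 2 groups fitted, and no share over all genes is given here for either. The smallest adjusted p-values were those of Usp51, at 0 in in vivo PSMPs and at least 122-fold higher (adjusted p = 0.159), Usp10 (2.27 ± 0.54, adjusted p = 0.165), Usp26, at least 33.2-fold higher (adjusted p = 0.196), and Usp2 (2.22 ± 0.60, adjusted p = 0.196). The median log2 fold change was 0.47, beside 0.23 over all genes. Usp28, the gene highest per length, stood at 864 and 711 CPM in con, 807 in in vivo PSMPs, 404 and 110 in con-in vitro, 221 and 362 in in vitro PSMPs, 299 and 450 in SAHA, and 197 and 235 in PSMPs & OE-Hdac3. Its product counteracts the ligase subunit Fbw7, and it passed in no comparison. Usp6nl, the GTPase-activating protein, was low throughout, at 1.99 to 17.6 CPM, and passed in no comparison either.

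Of 36 deubiquitinases outside the Usp family, 33 were tested. In in vitro PSMPs against con-in vitro 2 were higher (Otud6b and Uchl3) and 5 lower (Mysm1, Otub1, Otud1, Otud5 and Vcpip1), beside 8.57% and 6.78% of all genes. Mysm1, a further H2A deubiquitinase, stood at 883 and 1192 CPM in con-in vitro, 85.5 and 104 in in vitro PSMPs, 126 and 105 in SAHA, and 20.6 to 73.0 in con, in vivo PSMPs and PSMPs & OE-Hdac3. It fell by 3.45 ± 0.47 in in vitro PSMPs (adjusted p = 0.00176). As with Usp22, the con-in vitro libraries were the highest. Of these 7 genes Otud5 was also called in PSMPs & OE-Hdac3 against in vitro PSMPs, higher by 2.62 ± 0.57 (adjusted p = 0.035), together with Mindy3, which was lower. In the difference between the exposure effects 8 of the 33 were called, 2 higher and 6 lower, beside 4.87% and 6.4% of all genes.

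Of the 6 genes for ubiquitin and its activating enzymes, none passed in in vitro PSMPs against con-in vitro. In SAHA against con-in vitro Uba1, the main activating enzyme, fell by 1.46 ± 0.42 (adjusted p = 0.0401), at 148 and 174 CPM in con-in vitro and 35.0 and 82.3 in SAHA.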

How the data were processed

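The authors deposited 1 table of raw counts per gene (55401 rows, 12 RNA columns), and every value was checked to be a whole number. Per the submitters' processing notes, the build was mm10 and the tools were featureCounts, HISAT2, Bowtie2 2.2.5, SAMtools, DESeq2, Picard, fastp 0.12.4 and deepTools 3.5.1, with no role, order, strand setting or parameter given. Per the labels' protocols, cDNA came from a full-length amplification kit and libraries from a transposase kit, so counts are of amplified cDNA and intervals cover counting error only. Depth per column was 6.22 to 35.6 M counts, so that 3 counts, used as the floor, correspond to 0.0842 to 0.482 CPM before scaling. The H4K16ac libraries of the series were not analysed here.

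Samples were grouped by their labels. Over genes with at least 20 counts, the in vivo PSMPs columns agreed within counting noise (15.6% of genes equal) and were merged as their rounded mean, leaving 11 libraries. That lone library is assumed to vary like the other groups. Gene tests used R 4.3.3 with edgeR 4.0.16 and limma 3.58.1. The expression filter of edgeR (minimum count 10), applied to the 12 deposited columns before merging, kept 16736 genes. TMM factors ran from 0.542 to 1.57. All libraries entered 1 model with a coefficient for each group (robust quasi-likelihood, 5 residual degrees of freedom, biological coefficient of variation 71.9%), with Benjamini-Hochberg adjustment over all genes tested and 0.05 as threshold. The standard error is the fold change divided by the square root of its F statistic. Genes at 0 in a group have a bound against 3 counts over the group, and genes with 1 to 3 counts a ratio with a 95% interval. The procedure was tested on simulated data.

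The genes, role lists, markers and comparisons were chosen with earlier results of these data known. The first fit applied the filter after merging (17595 genes). The order was changed after both were seen, and the first is kept as an alternative. Usp6nl was moved out of the list of doubtful proteases once the genes were read. Named in each comparison were up to 6 called genes per direction whose libraries did not overlap and whose higher group averaged 10 CPM or more. The 8 highest per length, 16 genes with a set role, and the 4 of smallest p where none passed were named too. The other genes named, the motifs and the 3 printed promoters were chosen after their values were seen. Alternatives were no filter, DESeq2 1.42.0 size factors, library totals, the DESeq2 Wald test, a fit of only the groups compared, a replicate block, the in vivo PSMPs columns as 2 libraries and each column left out in turn. Added after seeing the data were the filter after merging and at least 10 counts in every library. Some results are not reported here.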

Additional observations from a re-analysis of the deposited data

Results flagged for a closer look

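The effect of exposure in culture and that in the animal differed for 4 genes by the test of the difference itself (edgeR's quasi-likelihood test, adjusted p from 0.0112 to 0.0433). The difference was -8.07 log2 for Usp27x, -7.40 for Usp36, -4.57 for Usp49 and -4.04 for Usp22, each lower in culture. The same sign was found in every alternative analysis of these 4 differences. In the same test 5 of the 12 oocyte markers were called higher and none lower, and their part in these differences was not tested. Usp27x lost its call without in vitro PSMPs replicate 2 (adjusted p = 0.064) and with only the 4 groups fitted (adjusted p = 0.0636). The other 3 lost theirs in those analyses, with the replicate block, and without in vitro PSMPs replicate 1 or con-in vitro replicate 2, and Usp22 and Usp49 also with library totals.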

How the results depend on the processing

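Over the 40 named results and their 527 alternative values no fitted fold change reversed, and 107 lost their call. Counts of Usp-named genes called moved by over 1.5 times as follows. For in vivo PSMPs against con, 0 calls became 2 with no filter, 2 with library totals, 5 with DESeq2's Wald test and 11 with its columns as 2 libraries. The Wald test took in vitro PSMPs against its control from 10 to 16. Fitting only the groups compared changed 20 to 5 for SAHA against con, 13 to 3 for con-in vitro against con, 3 to 18 for PSMPs & OE-Hdac3 against in vitro PSMPs, 0 to 26 against in vivo PSMPs, and 4 to 0 for the difference of effects. For PSMPs & OE-Hdac3 against in vitro PSMPs, 3 became 5 with no filter, 7 with library totals, 13 with the Wald test, 10 with the in vivo columns as 2 libraries and 9 with at least 10 counts in every library. Against in vivo PSMPs, 0 became 5, 6 and 3 with the last 3 of these. The difference of effects gave 2 with library totals, 8 with the Wald test and 9 with the columns as 2 libraries. Leaving out each library gave 0 to 16 calls for in vivo PSMPs against con, 1 to 10 for in vitro PSMPs, 2 to 14 for SAHA against con-in vitro, 1 to 31 for SAHA against con, 0 to 1 for PSMPs & OE-Hdac3 against in vitro PSMPs, 0 in each case against in vivo PSMPs, 11 to 21 for con-in vitro against con and 0 to 16 for the difference of effects. The shares of all genes called in these alternatives are not given here, and the cause was not tested.

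Same-numbered libraries share only a number: the labels tie them to nothing, and the correlation of replicate differences between groups ran from -0.29 to 0.057. With the replicate number as a block, 10 calls became 6 in in vitro PSMPs against con-in vitro and 4 became 1 for the difference of effects, and the other 6 counts stayed within 1.5 times. With 3 counts at 0.0842 to 0.482 CPM before scaling, a gene at 0 in con-in vitro is bounded less tightly than one at 0 in con.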
